A study of Mus musculus with 6 samples.

Results

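The mitochondrial ribosomal protein genes were taken as every gene of the deposited count matrix whose symbol begins with Mrpl or Mrps followed by a number, which gave 77 of 24421 genes. By symbol alone, 48 were assigned to the large subunit (Mrpl) and 29 to the small subunit (Mrps). Subunit is used in this sense below, and the place of each protein in the ribosome was not checked. Their mRNA was measured by bulk RNA-seq in CD4+YFP+ regulatory T (Treg) cells sorted from the spleens of female C57BL/6 mice aged 8 to 11 weeks, with 1 library per mouse. The comparison asked how loss of the microRNA miR-142 in Treg cells changed these mRNAs. The 3 WT libraries came from Foxp3Cre mice and the 3 KO libraries from Foxp3Cre miR-142fl/fl mice. Both groups carried the Foxp3Cre-YFP allele, whose Cre recombinase is driven by Foxp3, so that deletion took place in cells with a history of Foxp3 expression, and the sorted cells were not treated before RNA extraction. A difference between the groups includes any effect of the environment of the KO animals on their Treg cells, and in bulk RNA fewer cells of a type and less RNA per cell cannot be told apart.

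Mitochondria translate the few mRNAs of their own genome on a dedicated ribosome. Its RNAs are transcribed in the organelle, whereas all of its proteins are encoded in the nucleus, made in the cytosol and imported. The small subunit decodes the mRNA and the large subunit joins the amino acids, and the products are core subunits of the respiratory chain and the ATP synthase. Some of the proteins are descendants of bacterial ribosomal proteins and others are found only in mitochondrial ribosomes. Activated T cells increase mitochondrial translation together with respiration, and Treg cells rely on oxidative metabolism to a large extent.

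miR-142 is a microRNA of blood cells that produces mature strands from both arms of its hairpin. A microRNA pairs through its seed, bases 2 to 8, with sites in the 3′ UTR of target mRNAs. The mature sequences are shown because the letters searched in the members' 3′ UTRs follow from them. They are RefSeq entries on GRCm38, on the plus strand of chromosome 11, written 5′ to 3′ with the seed in capitals.
miR-142a-3p, chr11:87756903-87756925: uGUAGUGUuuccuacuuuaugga
miR-142a-5p, chr11:87756867-87756887: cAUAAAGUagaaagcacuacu

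The libraries held 13883069 to 24042994 counts. Levels are given as CPM, counts relative to the size of the library, after TMM normalization, a scaling that brings the bulk of the genes of all libraries to a common level. A value of 3 counts corresponded to 0.123 to 0.227 CPM. The deletion was visible at Mir142b, annotated on the strand opposite the miR-142 hairpin, whose level was 6.33 ± 2.50 CPM in the WT libraries and 0.370 ± 0.0244 CPM in the KO libraries (SD, n = 3 each). The mature microRNAs were not measured by these libraries, and Mir142 itself had 0 counts in all 6. The defining Treg genes Foxp3, Cd4, Il2ra, Ctla4 and Ikzf2 summed to 3929 to 4752 CPM in the WT libraries and 5826 to 6737 CPM in the KO libraries. Il2ra rose from a mean of 756 CPM in WT to 2578 CPM in KO (log2 fold change 1.77, FDR = 0.00088, QLF test). The others passed the test in neither direction, and Ctla4 ran from 315 to 1158 CPM within WT. KO replicate 1 stood apart through genes of other blood cells. Its 6 neutrophil markers summed to 651 CPM against 0.277 to 39.4 CPM in the other libraries, its 5 monocyte and macrophage markers to 1597 against 4.99 to 27.4 CPM, its 5 B cell markers to 177 against 7.57 to 21.3 CPM, its 4 CD8 and NK cell markers to 37.6 against 13.7 to 17.9 CPM, and its 4 erythroid markers, of which 3 were at 0 in all libraries, to 3.27 against 0 to 0.530 CPM. The number of members called, their median and their summed level are therefore also given without that library. The counts of the related lists are given without it where they changed. Leaving it out does not remove all of these differences. The neutrophil markers were at 7.57 CPM in KO replicate 2 and 39.4 CPM in KO replicate 3, against 0.277 to 1.17 CPM in WT. The monocyte and macrophage markers were at 27.4 and 6.71 CPM there, against 4.99 to 8.63 CPM in WT. The B cell and the CD8 and NK cell markers were below WT in both libraries. The erythroid markers were at 0 CPM in WT, 0.530 CPM in KO replicate 2 and 0.0684 CPM in KO replicate 3. The last value was below that of 3 counts, which was 0.205 CPM in KO replicate 3.

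The mRNAs of the mitochondrial ribosome differed little between WT and miR-142–deficient Treg cells, and where they passed the test they were higher in the KO. Of the 75 members that could be tested, 6 rose and 0 fell at a false discovery rate (FDR) of 0.05 (edgeR's quasi-likelihood F test, QLF, with Benjamini-Hochberg adjustment over 11658 genes). The 6 were Mrpl53, Mrpl20, Mrpl2, Mrpl27 and Mrpl52 of the large subunit and Mrps34 of the small subunit. The share of members that rose, 8%, was below that of all tested genes, of which 11.6% rose, and 7.27% of all tested genes fell. At an unadjusted p of 0.05 the QLF test gave 12 members higher and 0 lower, beside 19.7% and 15.1% of all tested genes. The number lower at that level was also 0 with edgeR's likelihood ratio test, its exact test and DESeq2, which gave 8, 8 and 10 members higher. By the QLF test it was 3 when counts were scaled by library size alone, with 6 higher. It was 2 with offsets for transcript length and GC content, with 12 higher, and 1 without KO replicate 3, with 7 higher. All 3 KO libraries lay above all 3 WT libraries for 14 of the 75 tested members, against 22.2% of all tested genes, and below them for 2 of the 75, against 18.8% of all tested genes. The design does not allow an exact permutation test of a single gene to go below 0.1.

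The median log2 fold change, KO over WT, was 0.07 over the 75 members (quartiles -0.03 and 0.18) and 0.02 over all tested genes (quartiles -0.22 and 0.30), but it was -0.0048 over the members and -0.06 over all tested genes when counts were scaled by library size alone. Under that scaling 1 member rose (Mrpl53), and of all tested genes 1064 rose and 1201 fell, where TMM gave 1350 and 847. The members were thus narrowly spread beside all tested genes. Quartiles were also close together for cytosolic ribosomal protein genes (-0.16 and 0.08) and for oxidative phosphorylation genes (0.16 and 0.36). The SD of the members' log2 fold changes was 0.22, against 0.82 over all tested genes, while the median standard errors were 0.13 and 0.15. The values ran from -0.33 for Mrps25 to 0.97 for Mrpl53, and 0 members reached a log2 fold change of 1 in either direction. For 58 members the 95% confidence interval of the fold change lay within 1.5-fold of no change in both directions, and for 73 within 2-fold. The fold change was above 0 for 53 of the 75 members (70.7%) and for 51.8% of all tested genes. That number of members depended on the processing. It was 37 with library size alone and 42 with offsets for transcript length and GC content. When 1 library was left out it ran from 42 (without KO replicate 3) to 54 (without WT replicate 1 or KO replicate 2). Without KO replicate 1, 2 members rose (Mrpl2 and Mrpl53), 0 fell, the median was 0.07 and the ratio of the summed levels, KO over WT, was 1.07. Of all genes tested without that library, 1107 of 11429 rose.

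**Figure D1:**
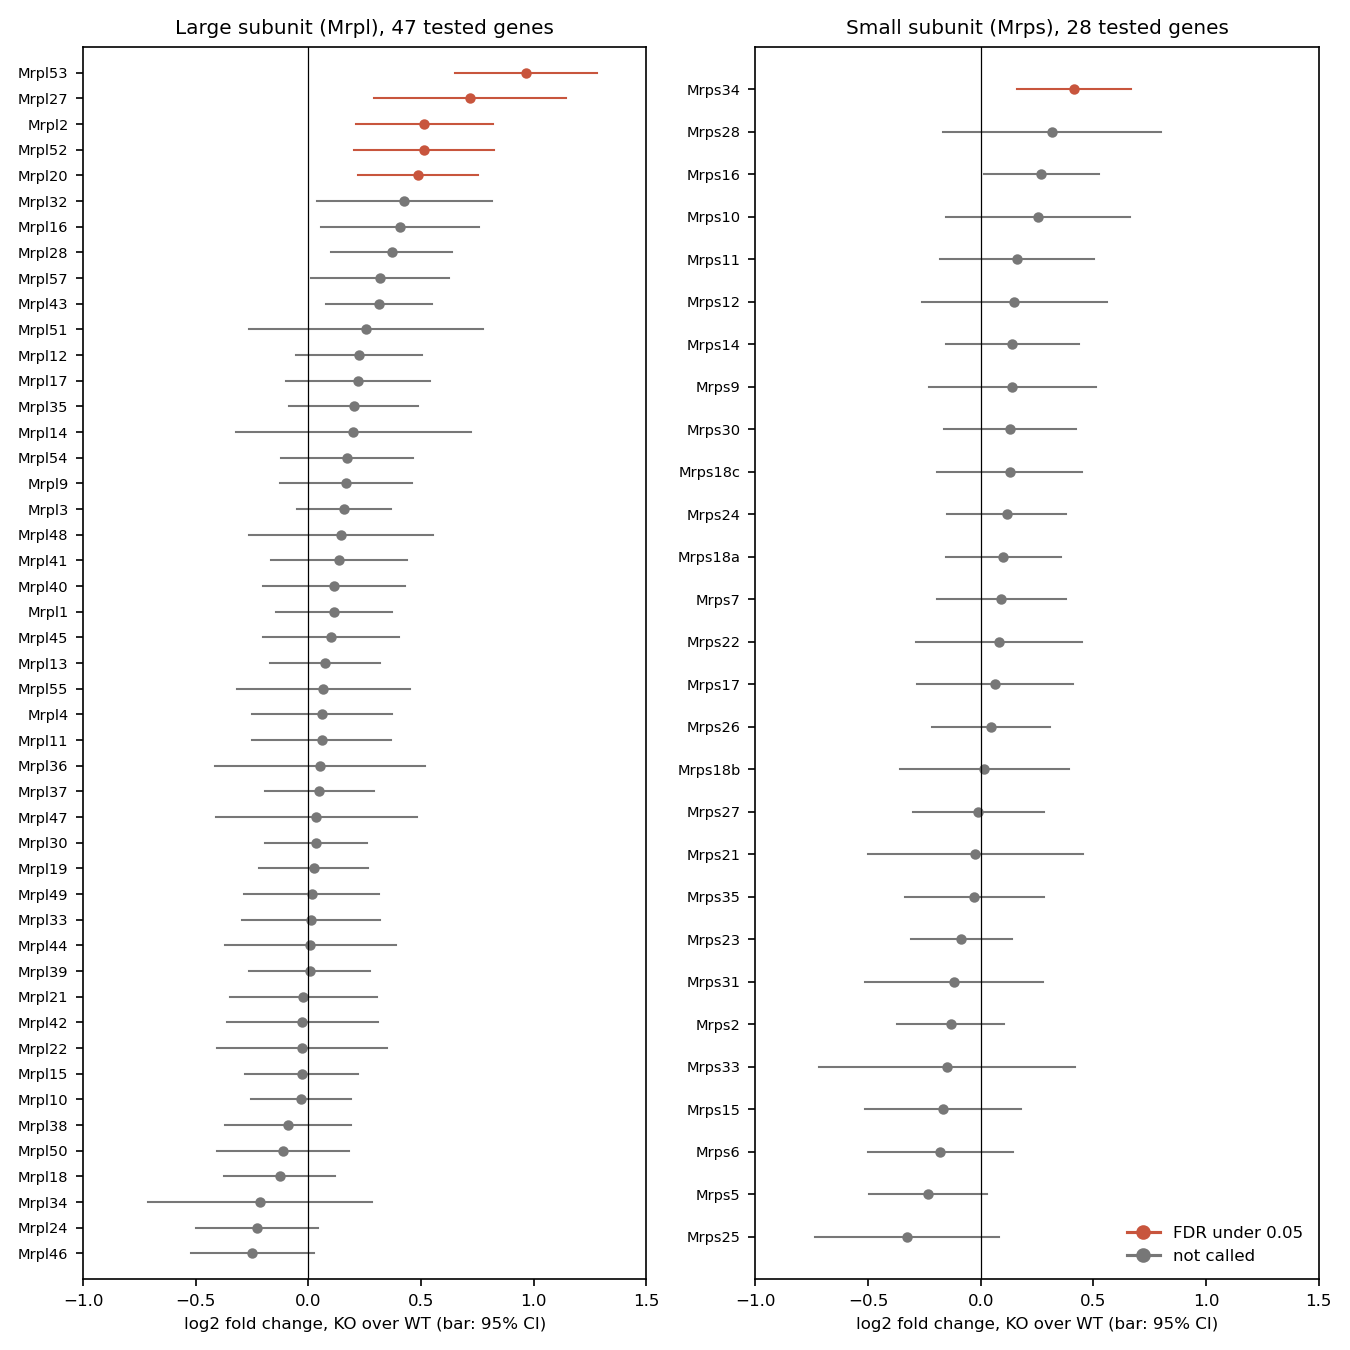
Log2 fold change, KO over WT, of the 75 tested members, ordered by value, with the large and small subunit genes marked; the lines are 95% confidence intervals from the QLF fit over 3 WT and 3 KO libraries. The values lie between -0.33 and 0.97, most intervals cross 0, and the 6 members that rose are at the upper end.

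Mrpl53, a protein found in the large subunit of mitochondrial ribosomes and without a bacterial counterpart, changed most. It was at 15.8, 13.3 and 12.2 CPM in the WT libraries and at 27.6, 25.3 and 27.6 CPM in the KO libraries. All KO libraries lay well above all WT libraries, and the spread within each group was small beside the gap. The log2 fold change was 0.97 ± 0.13 (SE; 95% CI 0.65 to 1.28; FDR = 0.00464 by the QLF test), a 1.95-fold increase. It was the only member that rose under all 18 alternative settings of the processing. The gene lies at chr6:83109040-83109939 on the plus strand (GRCm38). All of its exonic sequence is also annotated as exons of Gm42688, a same-strand gene that begins beside Ccdc142 and runs through to the end of Mrpl53, and its first bases overlap the antisense gene Ccdc142os. Neither Gm42688 nor Ccdc142os was among the genes of the deposited matrix under that name. Reads of Gm42688 over these exons may therefore have been counted as Mrpl53, and their share was not tested. The log2 fold change of Ccdc142, the gene upstream, was -0.17 (FDR = 0.388, QLF test), with 23.1, 26.2 and 24.5 CPM in WT and 19.5, 21.3 and 24.8 CPM in KO.

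Mrpl2 and Mrpl27 descend from bacterial proteins that lie close to the catalytic centre of the large subunit. Mrpl2 (chr17:46646229-46650139) was at 23.0, 19.4 and 18.7 CPM in WT and at 27.1, 32.0 and 28.3 CPM in KO. The log2 fold change was 0.52 ± 0.13 (SE; FDR = 0.0338, QLF test). Its exons overlapped no other gene and it shared no stretch of 51 bases, the read length, with another annotated transcript. Mrpl27 (chr11:94653767-94660089) was the lowest of the 6, at 11.2, 7.95 and 9.13 CPM in WT and 16.9, 16.1 and 13.4 CPM in KO. The groups did not overlap in either gene. The log2 fold change of Mrpl27 was 0.72 ± 0.18 (SE; FDR = 0.0343, QLF test), and 38.2% of its 51-base stretches also occur in other transcripts, among them Gm6304 and the neighbouring gene Eme1, so its level depends on how such reads were assigned.

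Mrpl20, whose bacterial relative acts early in the assembly of the large subunit, was at 24.6, 21.2 and 21.2 CPM in WT and at 33.4, 30.5 and 29.8 CPM in KO (chr4:155802878-155809975). Its log2 fold change was 0.49 ± 0.11 (SE; FDR = 0.0262, QLF test). Mrpl52 (chr14:54426909-54429756), another protein particular to mitochondrial ribosomes, was at 48.4, 36.3 and 36.0 CPM in WT and at 57.2, 55.8 and 59.4 CPM in KO. WT replicate 1 was its highest WT library, and the KO libraries were close to each other. The log2 fold change of Mrpl52 was 0.52 ± 0.13 (SE; FDR = 0.0361, QLF test), and it shared no 51-base stretch with another transcript.

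Of the small subunit, Mrps34 was the one member that rose. The protein has no bacterial counterpart and is required for the stability of the small subunit. Its mRNA (chr17:24895116-24897502) was at 31.5, 26.7 and 26.2 CPM in WT and at 37.0, 37.6 and 37.9 CPM in KO. The groups did not overlap, and the log2 fold change was 0.41 ± 0.11 (SE; FDR = 0.0374, QLF test). Of its exonic bases 62.8% are also covered by exons of Mapk8ip3 on the other strand. The counting did not use strand, so reads of the 2 genes cannot be told apart there. Mapk8ip3 itself fell, by 0.32 on the log2 scale (FDR = 0.0343, QLF test).

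**Figure D2:**
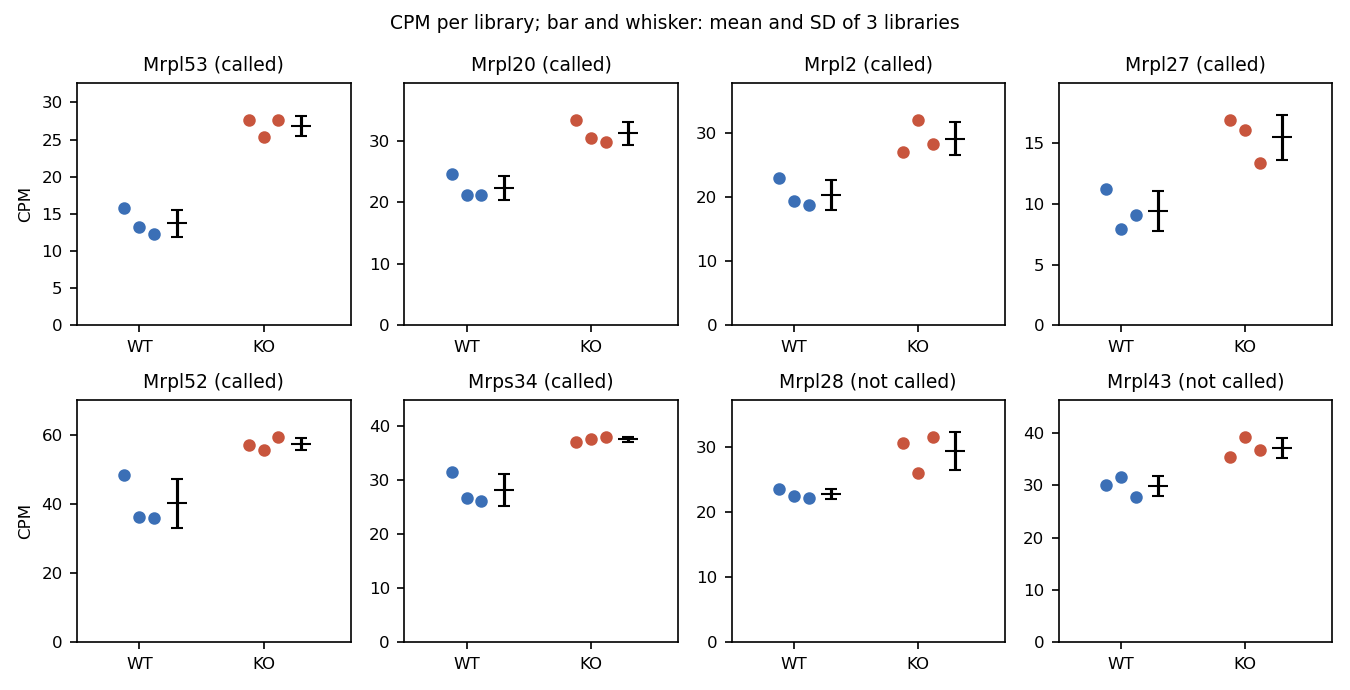
CPM (linear axes from 0) of the 6 members that rose and the next 2 by p-value, Mrpl28 and Mrpl43, in each WT and KO library; the bar and whisker beside the points are the mean and SD of 3 libraries. In all 8 panels the KO points lie above the WT points, with the widest gap in Mrpl53, at 12.2 to 15.8 CPM in WT and 25.3 to 27.6 CPM in KO.

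These calls were close to the threshold except for that of Mrpl53. The number of members that rose was 1 without WT replicate 2 or without WT replicate 3 (Mrpl53 alone in both cases), 2 without KO replicate 3 (Mrpl27 and Mrpl53), and 4 without WT replicate 1 (Mrpl27, Mrpl52, Mrps34 and Mrpl53). It was also 4 without KO replicate 2, of which Mrpl20 and Mrpl53 were among the 6 and Mrpl28 and Mrpl32 were not. Of all tested genes, 1350 of 11658 rose with all 6 libraries. That number was 666 of 11522 without WT replicate 1, 483 of 11551 without WT replicate 2 and 555 of 11540 without WT replicate 3. Without KO replicate 2 it was 1403 of 11447, and without KO replicate 3 it was 874 of 11472. Over the 18 alternatives Mrpl20 and Mrpl27 were called in 9, Mrpl52 in 8, Mrpl2 in 7 and Mrps34 in 4.

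Members just outside the threshold had groups that did not overlap. Mrpl28 was at 23.6, 22.5 and 22.1 CPM in WT and at 30.6, 26.0 and 31.5 CPM in KO (log2 fold change 0.37, SE 0.11, FDR = 0.0640, QLF test). Mrpl43 was at 30.1, 31.6 and 27.8 CPM in WT and at 35.4, 39.2 and 36.7 CPM in KO (log2 fold change 0.31, SE 0.10, FDR = 0.0692, QLF test). Mrpl16, related to a bacterial protein at the tRNA-binding sites, had a log2 fold change of 0.41 (FDR = 0.101, QLF test), with 15.8 to 20.1 CPM in WT and 20.2 to 26.2 CPM in KO. On the other side, the values closest to a decrease were those of Mrpl46, Mrps5 and Mrpl24. Mrpl46, a protein particular to mitochondrial ribosomes, was at 18.7, 17.1 and 18.0 CPM in WT and at 15.3, 14.4 and 15.6 CPM in KO (log2 fold change -0.25, FDR = 0.180, QLF test). Mrps5, whose bacterial relative bears on the accuracy of decoding, was at 21.6, 20.2 and 21.9 CPM in WT and at 16.9, 18.6 and 18.5 CPM in KO (log2 fold change -0.23, FDR = 0.182, QLF test). These were the 2 tested members whose KO libraries all lay below the WT libraries. The libraries of Mrpl24 overlapped, with 54.3 to 65.4 CPM in WT and 46.8 to 56.9 CPM in KO (log2 fold change -0.23, FDR = 0.206, QLF test).

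The subunits were alike in their medians. Of the 47 tested large subunit genes 5 rose, 36 had a log2 fold change above 0, and the median was 0.07. Of the 28 tested small subunit genes 1 rose, 17 had a log2 fold change above 0, and the median was 0.07. The summed level of all 77 members was 1910, 1759 and 1749 CPM in the WT libraries and 1911, 1881 and 2017 CPM in the KO libraries. WT replicate 1 and KO replicate 1 were level, and WT replicate 1 lay above KO replicate 2, so that the groups overlapped. The ratio of the means, KO over WT, was 1.07. For the large subunit genes the sums were 1251, 1144 and 1144 CPM in WT and 1293, 1232 and 1345 CPM in KO (ratio 1.09), and for the small subunit genes 659, 615 and 605 CPM in WT and 618, 649 and 672 CPM in KO (ratio 1.03). Sums are weighted towards the most abundant members.

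**Figure D3:**
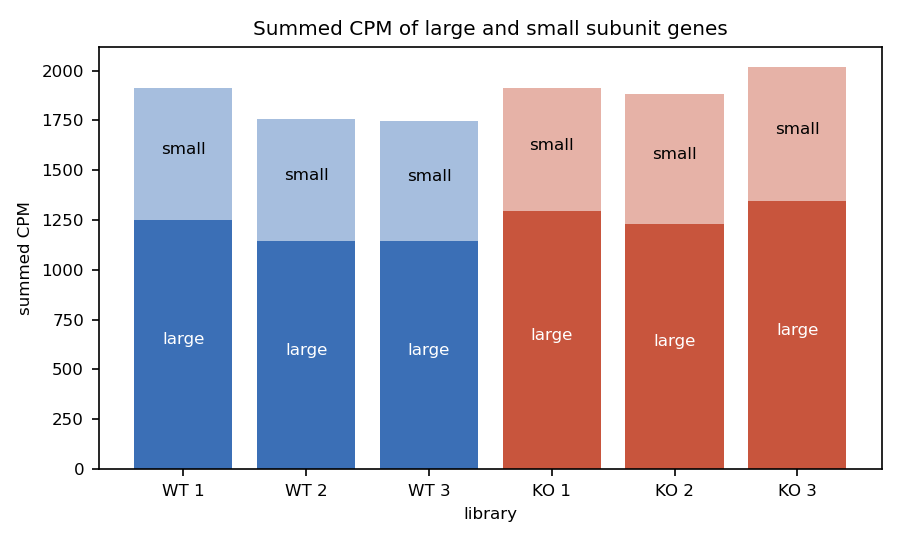
Summed CPM (linear axis from 0) of the 48 large subunit and 29 small subunit genes in each library, stacked. The bars run from 1749 CPM in WT replicate 3 to 2017 CPM in KO replicate 3, and WT replicate 1 is level with KO replicate 1.

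Every tested member was detected in all 6 libraries, most of them at a moderate level. Mrps33 was close to the filter of 1 CPM, at 1.82 to 2.71 CPM. The mean over the 6 libraries ran from 2.23 CPM for Mrps33 to 67.4 CPM for Mrpl9, with a median of 23.9 CPM, and 72 of the 75 had at least 100 counts in every library. Levels of different genes were compared per length, as CPM per kilobase of the principal transcript. On this scale the large subunit genes had a median of 18.1 (2.32 to 117) and the small subunit genes one of 11.4 (2.01 to 35.7). Mrpl52, at 117 CPM per kilobase, was the most abundant member, and its libraries, at 86.2 to 142, lay above those of every other member. It was followed in the large subunit by Mrpl33 at 57.7 (51 to 67.9 over the libraries), Mrpl30 at 44.8 (41.4 to 47.5), Mrpl9 at 41.8 (37.8 to 52.0) and Mrpl24 at 41.1 (34.9 to 48.8). The ranges of Mrpl30, Mrpl9 and Mrpl24 overlapped, and those of Mrpl33 and Mrpl9 did too, so the order after Mrpl52 is not resolved. In the small subunit Mrps34 had the highest mean over the 6 libraries, at 35.7 CPM per kilobase (28.5 to 41.3), followed by Mrps23 at 33.9 (31.1 to 37.4), Mrps9 at 32.7 (27.8 to 41.9), Mrps15 at 30.9 (23.7 to 34.5) and Mrps21 at 30.1 (21.4 to 34.8), and these 5 overlapped. Mrps34 led through the KO libraries, since its mean was 30.7 in WT and 40.8 in KO, and in WT Mrps23 (34.9), Mrps15 (32.7) and Mrps9 (31.1) were above it. Apart from Mrpl52 and Mrps34, these most abundant members passed the test in neither direction. Their log2 fold changes were 0.01 for Mrpl33, 0.03 for Mrpl30, 0.17 for Mrpl9, -0.23 for Mrpl24, -0.09 for Mrps23, 0.14 for Mrps9, -0.17 for Mrps15 and -0.02 for Mrps21. For Mrpl33, Mrpl30, Mrps9 and Mrps21 the sign changed with the scaling or with the library left out.

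The 2 members that did not reach 1 CPM in 3 libraries were Mrps36 and Mrpl23. Mrps36 was at 0.615 to 0.677 CPM in WT and 0.303 to 0.50 CPM in KO, so that its groups did not overlap either. Despite its name, its product is now known as a subunit of the α-ketoglutarate dehydrogenase complex. Mrpl23, a large subunit protein with a bacterial relative at the exit of the peptide tunnel, was at 0.410 to 0.554 CPM in WT and 0.411 to 0.908 CPM in KO. Both have processed pseudogenes. Of the 51-base stretches of Mrpl23, 76.3% also occur in another transcript, the pseudogene Mrpl23-ps1, and of those of Mrps36, 35.6% occur in pseudogenes such as Mrps36-ps1. The low counts of these genes thus stand beside sequence that reads cannot assign to 1 locus. Among all members, 28 shared no 51-base stretch with another annotated transcript, 27 had exons that overlapped another gene on either strand, and for 4 of these the overlap was above 50% of the exonic bases (Mrpl53, Mrps25, Mrps34 and Mrps18b).

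The members' transcripts were short, with a median length of 1316 bases against 2973 bases over all tested genes, and 53 of the 75 fell in the shortest class when all tested genes were divided into 3 classes of similar size by length (63 to 2246 bases). In that class the median log2 fold change was 0.07 over all genes and 0.07 over the members, and all 6 members that rose were in it. Of all genes in that class 11.4% rose, against 11.2% in the middle class and 12.2% in the longest. In the middle class the median was 0.01 over all genes and 0.13 over its 12 members, and in the longest -0.02 over all genes and 0.03 over its 10 members. When transcript length and GC content were included in the fit as offsets, 4 members rose (Mrpl20, Mrpl27, Mrpl52 and Mrpl53) and the median of the members was 0.03. Of all tested genes, 1481 rose in that fit, against 1350 without the offsets. The part of transcript length in the small upward shift of the members was not tested further.

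The search of 3′ UTRs for the letters that pair with the miR-142 seeds gave the following. The letters were ACACTAC, which pairs with bases 2 to 8 of miR-142a-3p, AACACTA, which pairs with its bases 3 to 9 and can overlap the first, and ACTTTAT, which pairs with bases 2 to 8 of miR-142a-5p. The longest annotated 3′ UTR of each gene was read on the transcribed strand. Those of the members were short, with a median of 390 bases against 1185 over all tested genes. Among the 75 tested members ACACTAC occurred in 4 (5.33%, against 6.99% of tested genes with a 3′ UTR), AACACTA in 6 (8%, against 10.2%) and ACTTTAT in 10 (13.3%, against 15.9%). The 8 members with either of the letters for miR-142a-3p had a median log2 fold change of 0.04, whereas all 1557 tested genes with one had 0.17. Of the 8 members 1 rose, beside 11.6% of all tested genes. The share that rose among the 1557 was not counted, so a rate for genes with these letters cannot be compared.

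Windows are printed for Mrpl11 and Mrpl24, which carried ACACTAC, and for Mrps25, which carried AACACTA and had the lowest fold change of the members. They are examples, chosen after their values were seen, and leave out other members with the same letters. The letters that match are in capitals, the windows are GENCODE vM21 exons on GRCm38 and are written 5′ to 3′ on the transcribed strand.
Mrpl11, for miR-142a-3p, chr19:4966370-4966398, plus strand: atgcaggcaaaACACTACgtagtaaatct
Mrpl24, for miR-142a-3p, chr3:87923434-87923462, plus strand: agccgttgtccACACTACccctctgcctc
Mrps25, for miR-142a-3p, chr6:92172349-92172377, minus strand: aatgttacccaAACACTAaaacttaagag

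The log2 fold change of Mrpl11, a relative of a bacterial protein at the factor-binding site, was 0.06 (16.4 to 20.8 CPM in WT and 18.6 to 19.6 CPM in KO), that of Mrpl24 was -0.23, and that of Mrps25, a small subunit protein, was -0.33 (FDR = 0.225, QLF test), with 17.6, 16.5 and 13.1 CPM in WT and 10.6, 13.3 and 13.7 CPM in KO. Mrpl17, with both words for miR-142a-3p in a 3′ UTR of 6651 bases, had 0.22 (FDR = 0.292, QLF test). These 4 members passed the test in neither direction. A match is a description of the sequence and does not show that the microRNA binds there.

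The promoters of the members were read for the words of factors known to drive nuclear genes of mitochondrial function. NRF1, GABPA with other ETS factors, and YY1 are such factors. The words were searched on both strands from 250 bases before to 50 bases after the RefSeq start, for the 68 members with an entry. GCGCATGC (NRF1) was present in 8 members (11.8%, against 6.36% of tested genes and 3.05% of all genes in the table), CCGGAAG (ETS) in 25 (36.8%, against 21.4% and 9.93%), and AAGATGGC (YY1) in 12 (17.6%, against 5.56% and 3.19%). The NRF1 word is nearly its own reverse complement, so 1 stretch can be found on both strands. All 3 words were thus found in a larger share of the members than of tested genes, which is a description and was not tested. Of the members that rose, Mrpl53, Mrpl27 and Mrpl52 held the ETS word, and their windows are printed with that of Mrpl9, an NRF1 match in the most abundant member by CPM, which did not pass the test. Capitals mark the word, or its reverse complement in Mrpl52, and all are on the plus strand of GRCm38.
Mrpl53, ETS, chr6:83109038-83109067: ccgcggagccgCCGGAAGcggtccgttcca
Mrpl27, ETS, chr11:94653725-94653754: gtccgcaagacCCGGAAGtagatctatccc
Mrpl52, ETS, chr14:54426851-54426880: caagatgtcggCTTCCGGttttcccggcag
Mrpl9, NRF1, chr3:94443297-94443326: gaggcgcagctGCGCATGCgcggggtcctt

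Of a list of 13 measured regulators of nuclear genes for mitochondria, 1 rose and 1 fell. Whether they act on the members in these cells was not measured. At an unadjusted p of 0.05, 5 were higher and 1 was lower by the QLF test. Over the alternatives 0 to 2 rose, among them 0 at an FDR of 0.01 and without WT replicate 1 or 2. The number was 2 with DESeq2 and without KO replicate 2. The number that fell was 0 to 1, among them 0 at an FDR of 0.01, with the replicate block and without WT replicate 2 or 3. Atf5, a transcription factor of the mitochondrial stress response, rose from 5.97, 4.92 and 5.64 CPM in WT to 14, 8.78 and 10.5 CPM in KO (log2 fold change 1.02, FDR = 0.0210, QLF test). Pprc1, a coactivator that works with NRF1 and GABPA, fell by 0.42 on the log2 scale, from 108, 94.2 and 93.3 CPM in WT to 70.3, 73.4 and 77.7 CPM in KO (FDR = 0.0230, QLF test). The libraries of the groups overlapped in neither gene.

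The lists related to the mitochondrial ribosome, among them 6 of its proteins under other names, had median log2 fold changes between -0.22 and 0.04. The median of the members was 0.07 in the same fit and 0.03 with the length and GC offsets. The difference between the lists was not tested. The 6 mitochondrial ribosomal proteins with other names (Dap3, Ptcd3, Chchd1, Aurkaip1, Gadd45gip1 and Ict1) had a median log2 fold change of -0.10, with 0 that rose and 0 that fell at an FDR of 0.05, and 0 at an unadjusted p of 0.05 by the QLF test, and both counts were 0 under all 18 alternatives, DESeq2 included. Their values ran from -0.25 for Gadd45gip1 to 0.16 for Aurkaip1. Dap3, a GTP-binding protein of the small subunit, was at 93.9, 92.3 and 89.6 CPM in WT and 70.4, 83.4 and 96.1 CPM in KO. Of 25 genes for assembly of the ribosome and modification of its RNA, 0 rose and 1 fell. That gene was Mrm1, a methyltransferase of the large ribosomal RNA, which fell by 0.56 on the log2 scale (FDR = 0.0465, QLF test). At an unadjusted p of 0.05, 1 was higher and 5 were lower, and over the alternatives, DESeq2 included, 0 rose and 0 to 3 fell. The median of the 25 was -0.16.

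Of 13 translation factors, 1 rose and 2 fell. Over the alternatives 1 rose in each, while the number that fell ran from 0 to 2 and was 0 with the likelihood ratio and exact tests, without any 1 of the WT libraries and without KO replicate 1. Oxa1l, which inserts newly made proteins into the inner membrane, rose from 78.5, 69.7 and 74.6 CPM in WT to 108, 111 and 102 CPM in KO (log2 fold change 0.52). Mtif2, an initiation factor, fell by 0.32 and Gfm2, which recycles ribosomes after termination, fell by 0.39 on the log2 scale (FDR = 0.0314 and 0.0341, QLF test). Of 17 mitochondrial aminoacyl-tRNA synthetases, 1 rose (Fars2, 0.53) and 1 fell (Wars2, by 0.81), with a median of -0.22. At an unadjusted p of 0.05, 1 was higher and 5 were lower by the QLF test, and over the alternatives 0 to 1 rose and 0 to 3 fell. The number that rose was 0 in most of them, among them the likelihood ratio and exact tests and every fit without 1 library except that without KO replicate 3, and the number that fell was 0 without WT replicate 3 and 3 without KO replicate 2. Of 13 genes for transcription and RNA stability in mitochondria, 0 rose and 0 fell, with 1 in each direction at an unadjusted p of 0.05 by the QLF test, and over the alternatives, DESeq2 included, 0 rose and 0 to 1 fell. The median was -0.12.

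Set beside the families most like it, the median of the mitochondrial ribosome lay between those of the cytosolic ribosome and of the respiratory chain that it helps to build. Of 79 tested cytosolic ribosomal protein genes 1 rose (Rps27l, which is also known as a p53 target) and 0 fell (1 was lower at an unadjusted p of 0.05 by the QLF test, and 0 to 1 fell over the alternatives), with a median log2 fold change of -0.03. Of 74 tested nuclear genes for subunits of oxidative phosphorylation 16 rose (21.6%) and 0 fell, also at an unadjusted p of 0.05 by the QLF test, with a median of 0.28. Among these, the complex I subunit Ndufb8 was at 41.3, 39.4 and 38.6 CPM in WT and at 61.8, 56.6 and 59.7 CPM in KO, and Sdhb of complex II was at 79.7, 70.5 and 76.0 CPM in WT and at 127, 101 and 112 CPM in KO. The number of oxidative phosphorylation genes that rose depended on the setting and ran from 1 to 23 over the 18 alternatives, with 9 without KO replicate 1, 6 without KO replicate 3, 5 without WT replicate 1 and 1 without WT replicate 2 or 3, while the number that fell was 0 in each, DESeq2 included. The difference between the families was not tested.

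**Figure D4:**
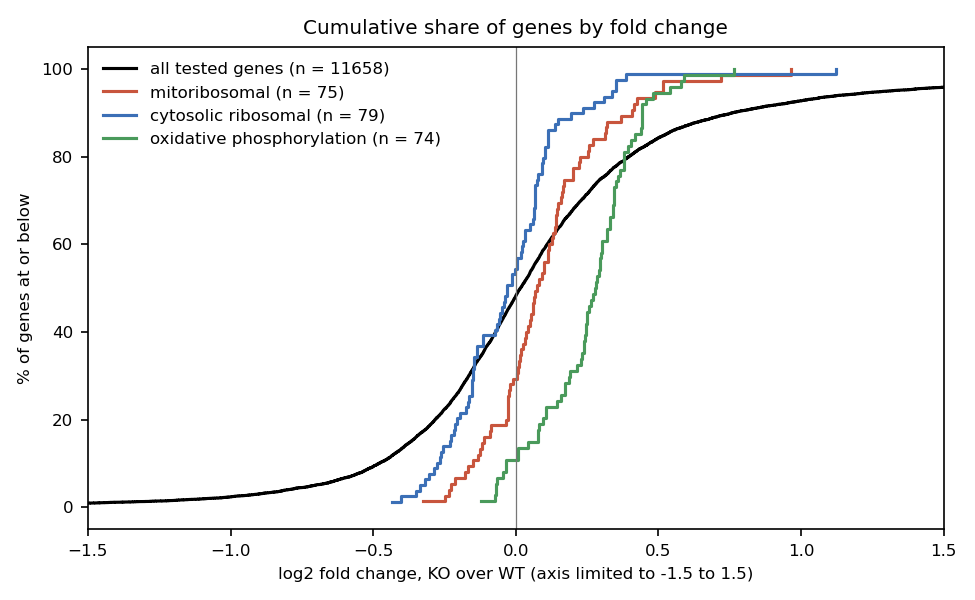
Cumulative percentage of genes (vertical axis) at or below a log2 fold change, KO over WT (horizontal axis, limited to 1.5 on either side of 0), for 75 mitoribosomal, 79 cytosolic ribosomal, 74 oxidative phosphorylation and all 11658 tested genes. The mitoribosomal curve is steeper than that of all genes and crosses 50% at 0.07, between the cytosolic ribosomal curve at -0.03 and the oxidative phosphorylation curve at 0.28.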

How the data were processed

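Libraries were made with Illumina TruSeq chemistry and sequenced as single-end reads of 51 bases. The authors aligned the reads with HISAT to mm10 and counted them with featureCounts without regard to strand. The annotation and the treatment of reads that map to several places are not given in the sources used here. The deposited values are raw counts per gene, whole numbers without normalization, for 24421 genes in 6 libraries. Counts of the 11658 genes that exceeded 1 CPM in 3 or more libraries were normalized by TMM and fitted in edgeR (version 4.0.16, R 4.3.3), with the QLF test, Benjamini-Hochberg adjustment and an FDR threshold of 0.05. Standard errors were derived from the F statistic. The alternatives were run with the same version of edgeR and with DESeq2 1.42.0. Groups were taken from the sample titles, and the mice were separate animals. The libraries' common biological coefficient of variation was 0.212, and depth and counting error set the precision of low genes.

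GENCODE vM21, on GRCm38 (mm10), supplied positions for 23376 genes through the symbol and 670 through a synonym, and 375 had no match. Transcript lengths are those of the principal transcript. microRNA and promoter sequences are from RefSeq (GRCm38.p6). Of the members, 68 of 77 matched a promoter entry.

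The members and all gene lists were chosen with earlier results of these data known. Members named with values were those past the threshold, the 3 nearest to it in each direction by p-value, the 5 most abundant per length of each subunit, and those not tested, and Mrpl11, Mrpl17 and Mrps25 were added for their sites after their values were seen. Within each related list, the genes named were chosen by the smallest p-values. The scripts were tested on simulated counts. The window of 1 seed match is not reported here.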

Additional observations from a re-analysis of the deposited data

How the results depend on the processing

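The 18 alternatives covered scaling, the filter, the test, the threshold, a block on replicate number, offsets for length and GC content, and leaving out each library. The number of members that fell was 0 in all of them. Against 6 members that rose, 1 rose with library size alone, at an FDR of 0.01, with the replicate block, and with the offsets together with the block, 2 rose without the filter, and 4 rose with the offsets alone. Of all tested genes, 1350 rose in the main fit and 1064 with library size alone. The number was 490 at an FDR of 0.01, 1061 with the block and 1012 with the offsets and the block. It was 1127 of 17585 without the filter and 1481 with the offsets alone. Leaving out 1 library gave 1 to 4 members and a median log2 fold change of 0.0345 to 0.105. The median was -0.00483 with library size alone, and the ratio of summed CPM was then 1.02. Signs changed for genes near 0. For Mrpl33 the log2 fold change was -0.0640 with library size alone, -0.00917 without the filter, -0.00759 with DESeq2, -0.0517 with the offsets, -0.0616 with the offsets and the block, and between -0.134 (without KO replicate 1) and 0.103 when a library was left out, including -0.00406 without WT replicate 3. For Mrpl30 it was -0.0456 with library size alone, -0.0307 with the offsets, -0.0317 with the offsets and the block, and from -0.0170 (without WT replicate 2) to 0.0621 when a library was left out, including -0.0167 without KO replicate 3. For Mrps21 leaving out a library gave -0.160 to 0.172 (0.0188 without WT replicate 1, 0.172 without KO replicate 2), and for Mrps9 -0.0228 (without KO replicate 2) to 0.256. The causes were not tested. Of the 342 comparisons of a named member with its main value, 273 kept their direction and side of the threshold. The correlations of the deviations of same-numbered libraries were 0.073, -0.012 and -0.188, and those of other pairs reached 0.199. With 3 libraries per group, these values cannot decide whether same-numbered libraries shared a batch. Only Mrpl53 rose in the fit with the replicate block. Depth limits the precision most for Mrps33 and for the untested Mrps36 and Mrpl23.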

Other observations

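Members often started head to head with another protein-coding gene. Genes of other types were not searched. A protein-coding gene on the opposite strand began within 1000 bases upstream or 500 bases inside the start for 26 of the 77 members (33.8%), against 15.8% of tested genes with a position. In 1 case both genes were members, Mrpl46 and Mrps11, with log2 fold changes of -0.25 and 0.16. Of the other 24 members, 23 were tested together with their neighbour. Of these neighbours 1 rose and 3 fell, of these members 3 rose, and in 0 pairs were both called at an FDR of 0.05 (QLF test). The fold changes had the same sign in 13 of the 23 pairs.

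Psma2, a subunit of the proteasome that starts opposite Mrpl32, was at 99.0, 97.4 and 97.4 CPM in WT and at 159, 161 and 175 CPM in KO (log2 fold change 0.75, FDR = 0.00176, QLF test). Mrpl32 was at 25.9, 24.5 and 23.6 CPM in WT and at 33.3, 25.9 and 40.2 CPM in KO (0.43, FDR = 0.113, QLF test), so that KO replicate 2 was level with WT replicate 1. Helq, opposite Mrps18c, fell by 0.38 while Mrps18c had 0.13. Ighmbp2, opposite Mrpl21, fell by 0.49 while Mrpl21 had -0.02, and Mitd1, opposite Mrpl30, fell by 0.40 while Mrpl30 had 0.03. These members and neighbours were chosen after their values were seen, the difference within each pair was not tested, and no explanation was examined.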
